A study of Homo sapiens with 9 samples.

Results

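The genes described here are 47 interferon-stimulated genes, together with the STAT and IRF factors that drive them, out of the 60708 genes counted in the series. They were taken from a given list of gene symbols by a rule that sets no threshold on a measured value, although the list was drawn up with earlier results of these data known, and each symbol matched 1 gene. The study gives the source of the libraries as MDA-MB-231, an established line of triple-negative breast cancer cells. The cells were grown in DMEM with 10% serum without any treatment. Of the 9 RNA-sequencing libraries, 3 were labelled WT and 3 each were labelled CS16 and CS19, the *SNAI1*-KO clones. By the study's methods, both clones were raised from cells transfected with plasmids for guide RNAs, Cas9 and a repair template and selected with puromycin. Each group of *SNAI1*-KO libraries thus stands for a single clone, and no such steps are given for the WT cells. The sources do not say whether replicates were separate cultures, so the p-values measure only the spread between these libraries.

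Interferons are secreted proteins that cells release on sensing foreign nucleic acid. Type I and type III interferons bind their receptors, activate the kinases JAK1 and TYK2 and lead to a complex of STAT proteins with IRF9, which binds interferon-stimulated response elements in promoters and switches on antiviral genes. In tumour cells, a part of this gene set can be expressed without added interferon, and it is known there for its ties to DNA and RNA sensing and to antigen presentation.

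The labels were checked before the genes were compared. *SNAI1*, the targeted gene, had 0.789, 2.17 and 1.08 CPM in the WT libraries, 1.27, 1.91 and 1.95 CPM in CS16 and 2.59, 4.08 and 3.08 CPM in CS19. It was not lower in the libraries labelled *SNAI1*-KO (log2 fold change 0.89 ± 0.42 (SE), adjusted p = 0.0838), with counts summed over all exons of the gene. Against WT it was at 0.39 ± 0.43 in CS16 (adjusted p = 0.474) and 1.32 ± 0.42 in CS19 (adjusted p = 0.031) by edgeR. The study itself reports lower *SNAI1* mRNA at each of 3 exons by RT-qPCR and no detectable protein in the clones. It also reports deletions at the locus seen in the RNA reads. *CDKN2A*, *CDKN2B* and *MTAP*, neighbours on 9p21, had no count in the WT libraries and summed to 164 to 181.9 CPM in the libraries labelled CS16 and CS19. Of 8 markers of mesenchymal and basal cells chosen for MDA-MB-231, 7 were called lower, and their summed level was 6256 to 7336 CPM in WT, 384.5 to 419.4 CPM in CS16 and 347.7 to 355.1 CPM in CS19. *CD44*, a defining member, had 629.5, 790.2 and 572 CPM in the WT libraries, 0, 0 and 0 CPM in CS16 and 0, 0.0867 and 0 CPM in CS19. Of 6 steroid receptor and luminal markers, 4 had enough counts to test, with 2 called lower and 1 called higher in *SNAI1*-KO. Whether the libraries labelled WT, CS16 and CS19 stem from the same line was not tested. Direct results of losing *SNAI1* and any other difference between these cell populations therefore cannot be told apart below, and CS16 and CS19 mean the libraries so labelled. Summed levels of 12 leukocyte markers were 5.77 to 7.47 CPM in WT, 2.55 to 3.68 CPM in CS16 and 3.14 to 3.6 CPM in CS19, with *CD3D*, *MS4A1* and *TYROBP* at 0 throughout. Of these markers, *CD14* was called lower in *SNAI1*-KO (5.35 ± 0.606 to 0.109 ± 0.0969 CPM, mean ± SD of 3 and 6 libraries). The summed levels of 5 endothelial markers were 5.7 to 7.7 CPM in WT, 0.686 to 1.11 CPM in CS16 and 1.15 to 1.3 CPM in CS19. Most of the WT sum came from *PECAM1*, which was called lower (5.66 ± 0.463 to 0.0502 ± 0.0728 CPM). *CLDN5* (0.594 ± 0.725 to 0.726 ± 0.143 CPM) and *VWF* (0.23 ± 0.0724 to 0.271 ± 0.0965 CPM) were not lower, and *CDH5* and *EMCN* were near 0. The part of the leukocyte and endothelial markers in the results was not tested. By a chi-square over genes divided by its degrees of freedom, the library WT-2 was at 221 and 271 from its 2 replicates, which were at 16.9 from each other. Counted pairs ranged from 19527195 to 28627777 per library.

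Of the members, 37 had an entry in the RefSeq promoter table (GRCh38.p14), which holds 250 bases before and 50 bases after a transcription start. *GBP2*, *IFIT2*, *IFITM2*, *IRF3*, *IRF7*, *MX2*, *OAS2*, *OASL*, *TRIM22* and *USP18* had none. The core of the interferon-stimulated response element was searched as GAAA, 2 free bases and GAAA on either strand. It was present in 27 of the 37 members (72.97%), against 1195 of 27305 genes in the table (4.376%). Sites that lie before a start are shown for some of the members with every-library values below and for *PARP9*, since this is the sequence through which the factors of the pathway are known to act. Each line is written 5′ to 3′ in the direction of the gene, with the core in capitals. On the opposite strand it reads TTTC, 2 free bases, TTTC. Windows that touch an annotated exon were shortened to 30 bases at most.
*ISG15* (chr1:1013364-1013419, plus strand): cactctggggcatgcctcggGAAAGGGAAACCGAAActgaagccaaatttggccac
*BST2* (chr19:17405738-17405767, minus strand): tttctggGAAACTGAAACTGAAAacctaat
*IFIT3* (chr10:89332415-89332464, plus strand): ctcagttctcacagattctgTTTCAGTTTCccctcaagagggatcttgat
*IFIT3* (chr10:89332468-89332497, plus strand): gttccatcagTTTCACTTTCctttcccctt
*GBP1* (chr1:89065316-89065345, minus strand): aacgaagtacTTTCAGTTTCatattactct
*IFI44* (chr1:78649751-78649788, plus strand): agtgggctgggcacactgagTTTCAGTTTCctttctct
*PARP12* (chr7:140062952-140062981, minus strand): tttcgccggcccggggccgcTTTCGGTTTC
*PARP14* (chr3:122680790-122680838, plus strand): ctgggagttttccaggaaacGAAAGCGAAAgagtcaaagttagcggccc
*PARP9* (chr3:122564322-122564351, minus strand): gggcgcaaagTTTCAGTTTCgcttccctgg

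For *IFIT3* the 2 sites before 1 of its starts are shown, and 2 further sites before another start are not. In *ISG15* and *BST2* the window held 2 overlapping cores, and the site of *PARP9* was also the site found for *DTX3L*, which starts in the opposite direction from the same stretch. The members *HERC6*, *IFI16*, *IFI35*, *IRF1*, *IRF9*, *OAS1*, *RIGI*, *SAMD9L*, *STAT2* and *XAF1* had a promoter entry without the core. The gamma-activated site, searched as TTC, 3 free bases and GAA, was found in 11 of the 37 members (29.73%) and in 9.376% of all genes. Such matches describe letters only. In 8 of the interferon receptors and kinases with an entry, the response element core was found in 0.

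In both clones, nearly the whole gene set was lower than in WT. Expression is given as CPM, counts per 1000000 counted pairs after TMM scaling, and calls needed an adjusted p below 0.05 and a log2 fold change of 2 or more in size. Between the 6 *SNAI1*-KO libraries and WT, 38 of the 47 members were called lower, where 14.3% of the 19631 genes tested were lower, and 1 member was called higher, where 12.6% of all genes were. On adjusted p alone, 45 members were lower (32.6% of all genes) and 1 was higher (31.1%). All 6 *SNAI1*-KO libraries lay below all 3 WT libraries in 45 members (28.6% of all genes) and above them in 1 (29.7%). The median log2 fold change was -6.06 over the members and -0.00 over all genes tested, and all 47 members passed the filter on low counts. With only CS16 and CS19 compared, 22 members did not pass it, so their passing here rested on the WT libraries.

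The summed level of the members was 2237 to 2796 CPM in WT, 246.9 to 253 CPM in CS16 and 299.2 to 315 CPM in CS19. In WT, 36 members had a mean of at least 10 CPM, whereas 7 did in *SNAI1*-KO and 26 had a mean there under 1 CPM. WT-2 was the lowest of the WT libraries in 29 members and the highest in 12, with a ratio to the mean of WT-1 and WT-3 between 0.399 and 2.68. Without WT-2, 37 members were called lower. In bulk RNA, fewer cells expressing a gene and less RNA per cell cannot be told apart.

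**Figure D1:**
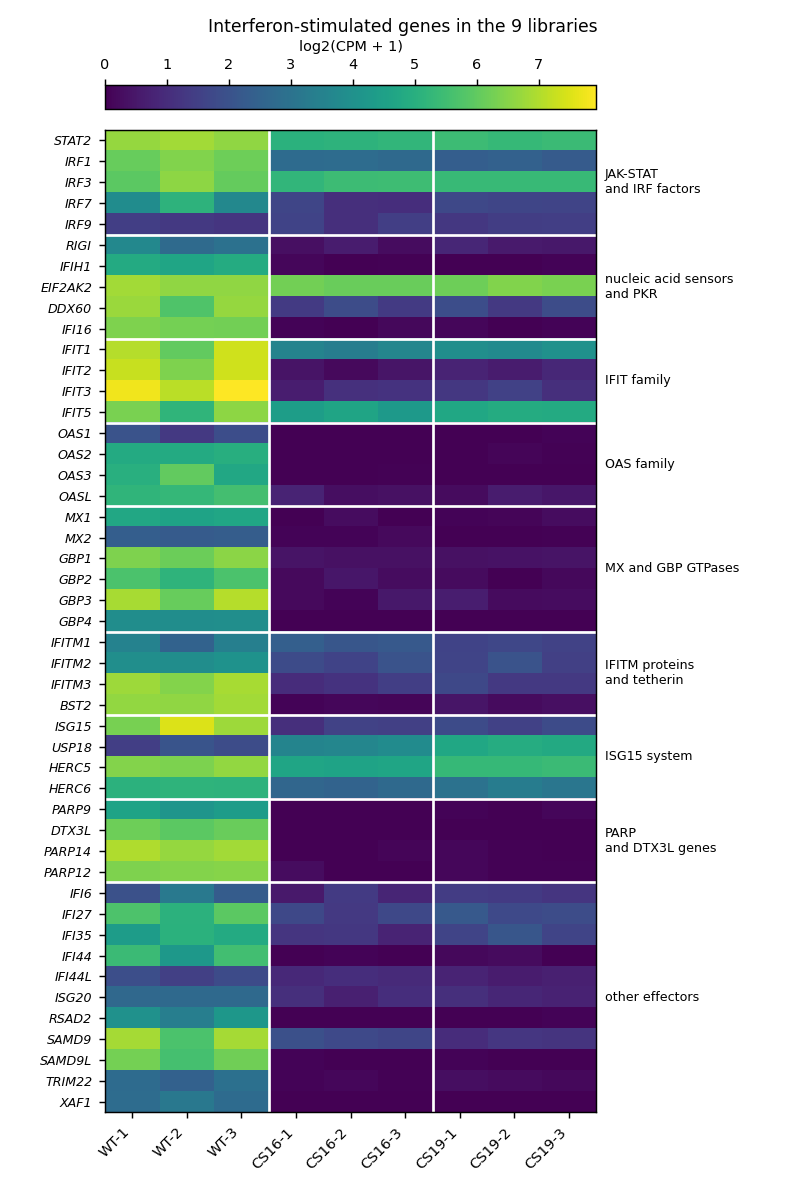
Expression of the 47 members in the 9 libraries as log2(CPM + 1), with members in rows grouped by role and libraries in columns. Most rows are bright in the 3 WT columns and dark in the 6 columns of CS16 and CS19, and *USP18* shows the opposite order.

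Among the JAK-STAT and IRF factors, which carry the signal to the promoters, 2 of 5 were called lower. *IRF1*, an activator of interferon and antigen presentation genes, had 67.6, 85.3 and 71.2 CPM in the WT libraries, 5.83, 5.92 and 5.49 CPM in CS16 and 4.14, 4.47 and 3.9 CPM in CS19. All 6 *SNAI1*-KO libraries were far below WT, with CS19 below CS16 (log2 fold change -3.91 ± 0.18 (SE), adjusted p = 5.83e-09). Group values below are the mean ± SD of 3 WT or 6 *SNAI1*-KO libraries. *IRF7*, the factor that amplifies type I interferon production, also fell, from 19.9 ± 12.4 to 1.81 ± 0.564 CPM (log2 fold change -3.46 ± 0.36 (SE), adjusted p = 6.30e-06). Its WT mean was led by WT-2, at 34.2 CPM against 13.4 and 12.1 CPM.

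*IRF3*, which is activated directly after nucleic acid sensing, had 59.7, 95.3 and 65.7 CPM in the WT libraries, 35.9, 41.9 and 42.9 CPM in CS16 and 39.7, 39.8 and 39.4 CPM in CS19. The WT libraries were all higher than the others, and the change passed the adjusted p but lay under the cut-off on size (log2 fold change -0.88 ± 0.16 (SE), adjusted p = 0.000409). The same held for *STAT2*, the partner of IRF9 in the response complex, at 104 ± 8.44 CPM in WT and 37.5 ± 3.76 CPM in *SNAI1*-KO (log2 fold change -1.47 ± 0.13 (SE), adjusted p = 1.41e-06). *IRF9*, which holds the DNA-binding part of that complex, was singled out after its values were seen. It had 1.78, 1.48 and 1.33 CPM in the WT libraries, 2.01, 1.1 and 1.79 CPM in CS16 and 1.45, 1.73 and 1.77 CPM in CS19, so the groups overlapped (log2 fold change 0.10 ± 0.26 (SE), adjusted p = 0.747). Of its exonic bases, 42.2% are shared with another annotated gene, and pairs on shared bases could not be placed on 1 gene. The corresponding share was 22.9% for *IRF1*, whose antisense neighbour *IRF1-AS1* was also lower (log2 fold change -4.07), and 19.3% for *IRF3*.

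Of the nucleic acid sensors and PKR, 4 of 5 were called lower. *IFI16*, a sensor of DNA, had 82.5, 75.7 and 74 CPM in the WT libraries, 0.049, 0 and 0.119 CPM in CS16 and 0.0909, 0 and 0.0655 CPM in CS19. The WT libraries lay close together and far above the rest, where 2 of the 6 libraries had no count (log2 fold change -10.29 ± 0.34 (SE), adjusted p = 9.31e-10). The RNA sensor *IFIH1* (MDA5) changed likewise, from 26.8 ± 2.35 to 0.0339 ± 0.0415 CPM, and *RIGI*, the sensor of viral RNA with a 5′ triphosphate, from 8.12 ± 3.34 to 0.448 ± 0.222 CPM. *DDX60*, a helicase that acts with them, fell from 86.9 ± 30.1 to 2.07 ± 0.592 CPM. For *RIGI*, 43.2% of the exonic bases are shared with a second gene, which had no count in any library.

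*EIF2AK2*, which encodes the kinase PKR that halts translation on binding viral RNA, kept most of its level. It had 112.6, 97.2 and 97 CPM in the WT libraries, 74.6, 69 and 69.2 CPM in CS16 and 71.8, 85.4 and 80 CPM in CS19. The *SNAI1*-KO libraries were again below all WT libraries, by much less than the sensors (log2 fold change -0.45 ± 0.13 (SE), adjusted p = 0.00822). With no filter on low counts, the edgeR adjusted p of *EIF2AK2* was 0.131 (log2 fold change -0.34). In separate edgeR fits against WT, *EIF2AK2* was at -0.50 ± 0.16 in CS16 (adjusted p = 0.0324) and -0.33 ± 0.17 in CS19 (adjusted p = 0.142).

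In the IFIT family, whose proteins bind viral RNA and block its translation, 3 of 4 members were called lower. *IFIT3* had 218, 139 and 243 CPM in the WT libraries, 0.539, 1.15 and 1.23 CPM in CS16 and 1.45, 1.91 and 1.11 CPM in CS19. WT-2 was the lowest WT library and still far above all others (log2 fold change -7.33 ± 0.30 (SE), adjusted p = 3.11e-09). *IFIT2* fell from 134 ± 43.5 to 0.49 ± 0.263 CPM and *IFIT1* from 119 ± 49.7 to 12.2 ± 2.17 CPM. *IFIT5*, the least changed of the family, was at 70.4 ± 31.5 CPM in WT and 24.2 ± 4.03 CPM in *SNAI1*-KO, under the cut-off on size (log2 fold change -1.54 ± 0.26 (SE), adjusted p = 0.000296). Its WT libraries ranged from 35.1 CPM in WT-2 to 95.6 CPM.

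All 4 members of the OAS family, which make the 2′-5′ oligoadenylates on sensing double-stranded RNA, were called lower. *OASL*, a family member without that activity, had 35.9, 37.9 and 46 CPM in the WT libraries, 0.735, 0.239 and 0.279 CPM in CS16 and 0.182, 0.52 and 0.393 CPM in CS19. WT and *SNAI1*-KO did not overlap (log2 fold change -6.66 ± 0.31 (SE), adjusted p = 7.49e-09). *OAS2* had 27.5, 28 and 30.2 CPM in the WT libraries, 0, 0 and 0 CPM in CS16 and 0, 0.0867 and 0.0327 CPM in CS19, so 4 of the 6 libraries held no count. With 3 counts or fewer over those 6 libraries, the members below are given as ratios of normalized counts with intervals for counting error only. *OAS1* was 174-fold (95% interval 47.2 to 1448) higher in WT, *OAS2* 1354-fold (95% interval 462 to 6570.5) and *OAS3* 5624-fold (95% interval 1008 to 222215).

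**Figure D2:**
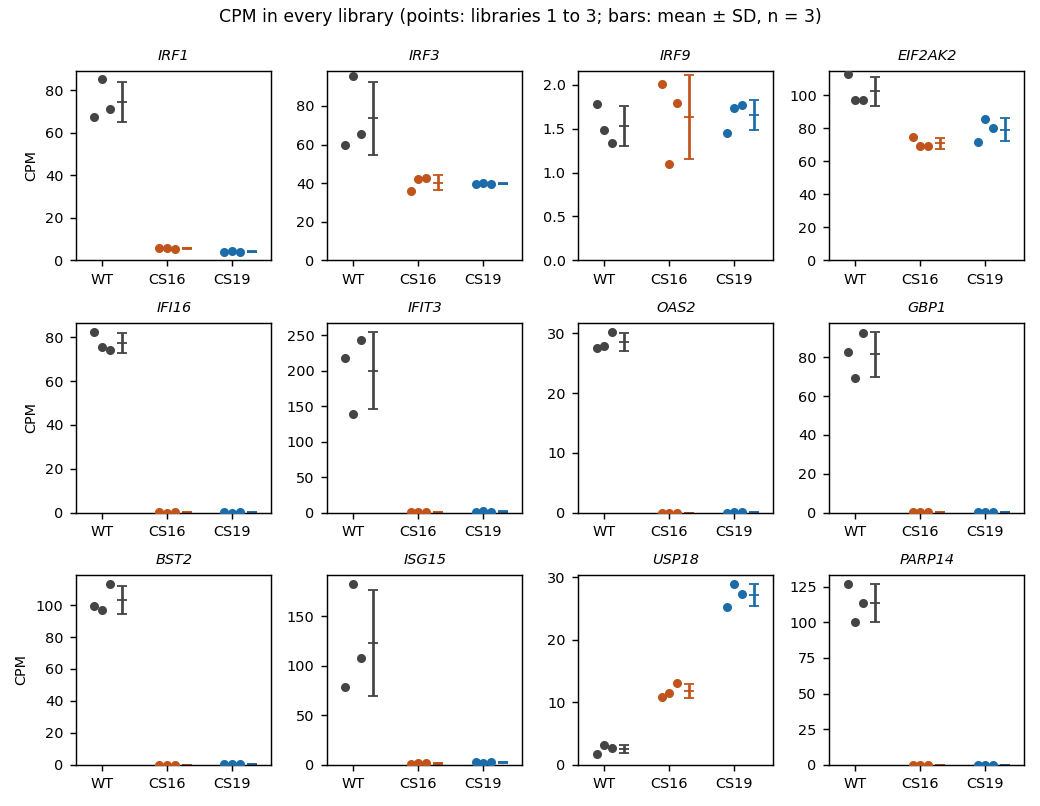
CPM of 12 members in each library, with points for libraries and bars for the mean ± SD of 3 libraries, on linear axes from 0. *IRF3* and *EIF2AK2* are moderately lower in CS16 and CS19, *IRF9* overlaps between groups, *USP18* is lowest in WT and highest in CS19, and the other 8 members lie near 0 in both clones or, for *IRF1*, at 3.9 to 5.92 CPM.

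The 6 MX and GBP genes encode GTPases that act against viruses and intracellular microbes, and all 6 were called lower. *GBP1* had 82.7, 69.4 and 92.5 CPM in the WT libraries, 0.343, 0.286 and 0.279 CPM in CS16 and 0.273, 0.304 and 0.327 CPM in CS19. The 6 *SNAI1*-KO libraries lay close together, and it had the smallest p of the role (log2 fold change -8.05 ± 0.17 (SE), adjusted p = 1.19e-10). *GBP3* had 118.1, 66.9 and 131 CPM in the WT libraries, 0.147, 0.0477 and 0.438 CPM in CS16 and 0.545, 0.173 and 0.196 CPM in CS19, with WT-2 the lowest WT library but well above the rest (log2 fold change -8.63 ± 0.41 (SE), adjusted p = 9.51e-09). *GBP2* fell from 45.4 ± 9 to 0.173 ± 0.124 CPM, *MX1* from 24.7 ± 1.5 to 0.0866 ± 0.089 CPM and *MX2* from 4.02 ± 0.176 to 0.0481 ± 0.0586 CPM. *GBP4* had 798 counts over the WT libraries and none over the other 6, at least 660-fold lower when 3 counts over the group are taken as the floor.

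The IFITM proteins block the entry of viruses into cells, and tetherin, the product of *BST2*, holds budding virus at the cell surface. Of these 4 genes, 3 were called lower. *BST2* had 99.2, 97.2 and 113.2 CPM in the WT libraries, 0.049, 0.0955 and 0.0796 CPM in CS16 and 0.364, 0.173 and 0.262 CPM in CS19. CS16 lay below CS19 within a range near 0, and both lay far below WT (log2 fold change -9.16 ± 0.33 (SE), adjusted p = 1.28e-09). *IFITM3* fell from 104 ± 15.6 to 1.55 ± 0.448 CPM and *IFITM2* from 14.4 ± 1.03 to 2.44 ± 0.547 CPM. *IFITM1* was at 8.26 ± 3.13 CPM in WT and 2.9 ± 0.972 CPM in *SNAI1*-KO and was not called (log2 fold change -1.51 ± 0.32 (SE), adjusted p = 0.00145). The 3 IFITM genes are close in sequence and 31.6% of the exonic bases of *IFITM1* overlap other genes, so the division of pairs among them is uncertain.

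The ISG15 system attaches a ubiquitin-like protein to others, and its members did not move together. *ISG15*, the modifier itself, had 78.7, 183 and 108 CPM in the WT libraries, 1.08, 1.96 and 1.83 CPM in CS16 and 2.5, 1.86 and 2.49 CPM in CS19. WT-2 was the highest library and the clones were near 2 CPM (log2 fold change -5.97 ± 0.30 (SE), adjusted p = 1.33e-08). *HERC6* fell from 34.1 ± 0.87 to 6.52 ± 1.65 CPM (log2 fold change -2.39 ± 0.20 (SE), adjusted p = 1.13e-06). *HERC5*, the main human ligase for ISG15, was at 88.7 ± 9.25 CPM in WT and 31.9 ± 8.66 CPM in *SNAI1*-KO, under the cut-off on size (log2 fold change -1.48 ± 0.21 (SE), adjusted p = 8.67e-05).

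*USP18*, which removes ISG15 from proteins and also restrains signalling at the type I receptor, was the only member called higher in these comparisons, and was singled out after its values were seen. It had 1.78, 3.14 and 2.62 CPM in the WT libraries, 10.8, 11.5 and 13.1 CPM in CS16 and 25.3, 28.9 and 27.3 CPM in CS19. The 3 groups did not overlap, with WT lowest and CS19 highest (log2 fold change 2.96 ± 0.43 (SE), adjusted p = 8.53e-05). *USP41*, a near copy of *USP18*, held at most 2 counts in any library.

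The PARP and DTX3L genes encode ADP-ribosyltransferases and a ubiquitin ligase that works with PARP9. All 4 were called lower, and the highest mean left in *SNAI1*-KO was 0.0605 CPM, of *PARP12*. *PARP14* had 127, 100.3 and 113.4 CPM in the WT libraries, 0, 0 and 0.0796 CPM in CS16 and 0.0909, 0.0434 and 0 CPM in CS19. *PARP12* had 83.1, 86.8 and 88 CPM in the WT libraries, 0.196, 0 and 0 CPM in CS16 and 0.0909, 0.0434 and 0.0327 CPM in CS19. In both genes the WT libraries stood close together while the others had between 0 and 4 counts each (log2 fold change -11.44 ± 0.37 (SE), adjusted p = 8.49e-10 for *PARP14* and -10.43 ± 0.40 for *PARP12*). *DTX3L* had 3839 counts over WT and none elsewhere, at least 3174-fold lower. *PARP9*, for which the same match to the core was found, was 717-fold (95% interval 279 to 2636) higher in WT.

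Among the 11 other effectors, 10 were called lower. *IFI44* had 41.5, 17.7 and 45.6 CPM in the WT libraries, 0, 0.0477 and 0 CPM in CS16 and 0.136, 0.173 and 0 CPM in CS19, and WT-2 was the lowest WT library without reaching the others (log2 fold change -9.13 ± 0.57 (SE), adjusted p = 7.79e-08). *SAMD9L*, a restraint on cell growth and virus replication, had 76, 47.2 and 73.7 CPM in the WT libraries, 0.049, 0 and 0 CPM in CS16 and 0.0454, 0 and 0 CPM in CS19. A single pair was counted in each of 2 of the 6 libraries, which gave a ratio of 4718-fold (95% interval 1305 to 38973). *RSAD2* (viperin), an enzyme that makes a chain-ending nucleotide, was 1006-fold (95% interval 278 to 8320.1) higher in WT.

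*XAF1*, which promotes cell death, had 375 counts over WT and none elsewhere, at least 310-fold lower. Another gene, *PRAL*, covers 38.3% of its exonic bases. *SAMD9* fell from 94.1 ± 37.9 to 1.85 ± 0.724 CPM, *IFI27* from 48.2 ± 13.8 to 2.45 ± 0.711 CPM and *IFI35* from 26.6 ± 6.29 to 1.84 ± 0.917 CPM. *TRIM22* fell from 5.65 ± 1.03 to 0.119 ± 0.0729 CPM and *ISG20*, an exonuclease, from 5.5 ± 0.03 to 0.896 ± 0.213 CPM. *IFI6* lay at the cut-off, with 5.05 ± 2.88 CPM in WT and 1.21 ± 0.494 CPM in *SNAI1*-KO (log2 fold change -2.05 ± 0.41 (SE), adjusted p = 0.00103), and without WT-2 it was at -1.49 and not called. *IFI44L* was at 2.35 ± 0.466 CPM in WT and 0.786 ± 0.198 CPM in *SNAI1*-KO and not called (log2 fold change -1.58 ± 0.27 (SE), adjusted p = 0.000331).

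**Figure D3:**
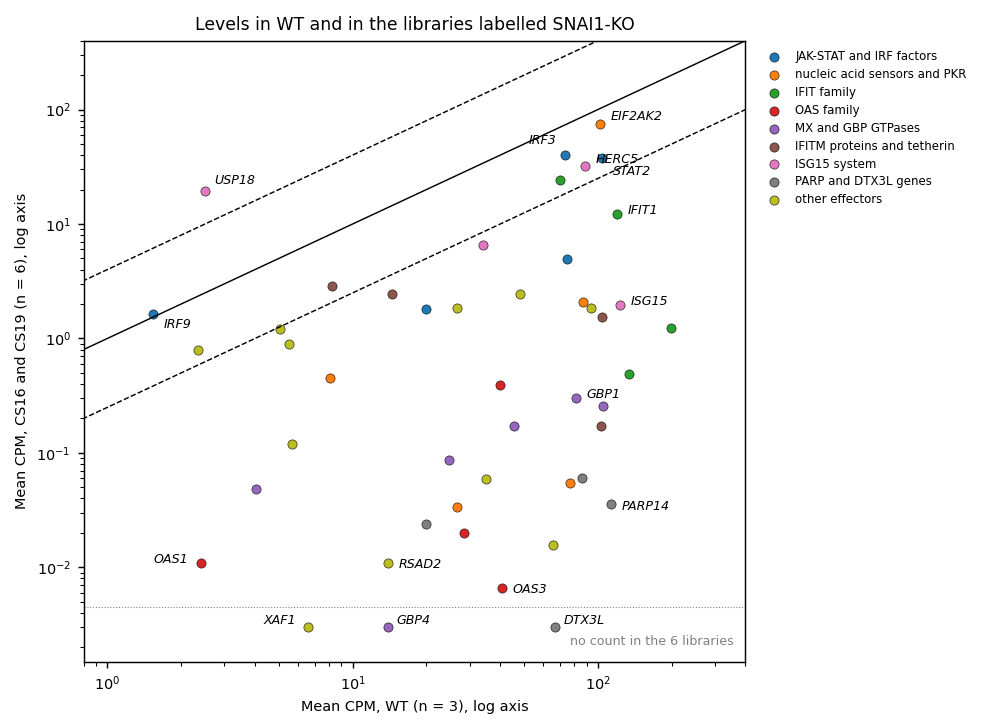
Mean CPM of each member in WT (n = 3, horizontal log axis) and in CS16 and CS19 together (n = 6, vertical log axis), coloured by role, with the solid line at equal levels and dashed lines at a log2 fold change of 2 either way. *USP18* lies above the upper dashed line, *IRF9* on the solid line, and *GBP4*, *DTX3L* and *XAF1* below the dotted line for members with no count.

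Among members that sit side by side in the genome, the change was of unlike size in some clusters and of like size for some neighbours. With gaps of at most 300 kb, 26 members fell into 9 clusters. In the IFIT cluster on chromosome 10 (GRCh38, 89283694 to 89421605, plus strand), the ratio of WT to *SNAI1*-KO was 2.94 for *IFIT5*, 9.77 for *IFIT1*, 163 for *IFIT3* and 264 for *IFIT2*. On chromosome 7 (93099513 to 93148385, minus strand) it was 53 for *SAMD9*, a neighbour of *SAMD9L*. On chromosome 4 (88378739 to 88506163) it was 5.15 for *HERC6* and 2.74 for *HERC5*. In the GBP cluster on chromosome 1 (89006679 to 89198942) it was 271 for *GBP1*, 271 for *GBP2* and 409.8 for *GBP3*, with *GBP4* given above as a bound. The differences between neighbours were not tested.

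Per exon length, as TPM (transcripts per 1000000, from the summed exon length of each gene), the members with the highest levels in WT were *ISG15* at 461 ± 229.6 and *BST2* at 299.9 ± 14.9 (SD, n = 3), a pair whose ranges overlapped within their SD. *IFIT3* followed at 125 ± 28.1 TPM and *IFITM3* at 117.2 ± 13.9 TPM, also within their spread. In CS16 the order was led by *IRF3* at 32.9 ± 2.56 TPM, followed by *EIF2AK2* at 20.1 ± 3.46 and *USP18* at 19.8 ± 2.55 TPM (SD, n = 3). In CS19 it was led by *USP18* at 44.5 ± 6.05 TPM, followed by *IRF3* at 31.8 ± 3.28 and *HERC5* at 25.2 ± 1.38 TPM (SD, n = 3). *USP18* was the 39th of the 47 members in WT, and *BST2*, the second there, was the 26th in CS16 and the 20th in CS19.

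The clones were also compared with WT separately. These comparisons share the WT libraries, so they are not independent of each other. In CS16, 38 members were called lower (15.3% of 18611 genes tested) and 1 higher (11.8%). The median over the members was -6.24 on the log2 scale, against -0.03 over all genes. In CS19, 37 were called lower (14.4% of 18935 genes) and 1 higher (12% of them), with medians of -6.20 and -0.00. *USP18* was at 2.27 ± 0.27 in CS16 and 3.48 ± 0.26 in CS19 on the log2 scale. *IFI6* was called in CS16 (-2.44 ± 0.57) and not in CS19 (-1.70 ± 0.43).

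Between the clones, the members differed much less than from WT. Of the 47, 25 had enough counts to test, and the other 22 did not exceed 0.735 CPM in any library of CS16 or CS19. By edgeR, 0 members were called lower in CS16 than in CS19 (0.496% of 17538 genes) and 0 higher (0.633%), with 12 members at an unadjusted p below 0.05. DESeq2 also called 0, with 11 at an unadjusted p below 0.05. On adjusted p alone, 8 members were lower in CS16 (12.7% of all genes) and 3 were higher (14.7%). The median log2 fold change was -0.40 over the 25 members and -0.02 over all genes, and 18 of the 25 members were lower in CS16, as were 52.2% of all genes tested.

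*USP18* had the smallest p of them (log2 fold change -1.20 ± 0.10 (SE), adjusted p = 1.34e-06) and was followed by *HERC5* (log2 fold change -0.73 ± 0.08 (SE), adjusted p = 1.42e-05). *IFIT2* had the largest size of the 25, at -1.30 ± 0.43, from means of 0.281 CPM in CS16 and 0.699 CPM in CS19. In the other direction, *SAMD9* was at 0.99 ± 0.23, *IFITM1* at 0.86 ± 0.19 and *IRF1* at 0.46 ± 0.14.

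**Figure D4:**
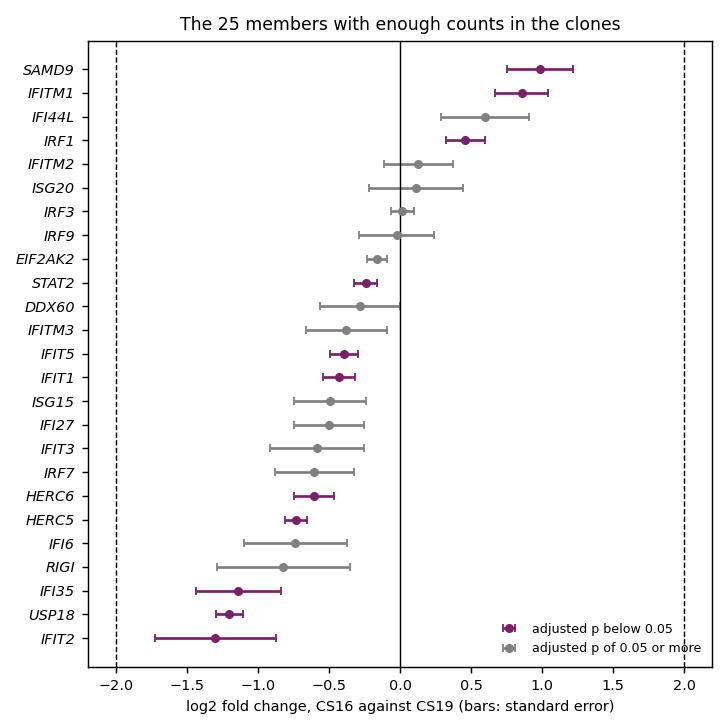
Log2 fold change of CS16 against CS19 with its standard error for the 25 members that could be tested, coloured by whether the adjusted p was below 0.05, with dashed lines at the cut-off of 2. No point reaches the dashed lines, the lowest being *IFIT2* at -1.30 and the highest *SAMD9* at 0.99.

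The rest of the pathway was read from 6 further lists. Of 9 receptor and kinase genes, all were tested and 0 were called in either direction between all *SNAI1*-KO libraries and WT by edgeR or DESeq2. On the adjusted p alone 7 passed, and 7 had an unadjusted p below 0.05. Of those that passed the adjusted p, *IFNAR2*, *IFNGR1*, *IFNLR1* and *JAK2* were higher in *SNAI1*-KO, and *JAK1*, *TYK2* and *IL10RB* were lower. Of all genes tested, 32.6% were lower and 31.1% were higher on the adjusted p alone. *IFNLR1*, the specific chain of the type III receptor, was at 5.7 ± 1.46 CPM in WT and 12.9 ± 1.77 CPM in *SNAI1*-KO (log2 fold change 1.18 ± 0.21 (SE), adjusted p = 0.000461). *TYK2* was at 144 ± 55.6 CPM in WT and 83.5 ± 5.98 CPM in *SNAI1*-KO (log2 fold change -0.79 ± 0.19 (SE), adjusted p = 0.0036), with WT-2 the highest library at 209 CPM, and *IL10RB*, the shared chain, at 1.1 ± 0.344 CPM in WT and 0.295 ± 0.161 CPM in *SNAI1*-KO (log2 fold change -1.89 ± 0.46 (SE), adjusted p = 0.0037). In CS16 alone against WT, *IL10RB* was called lower (log2 fold change -2.12 ± 0.61 (SE), adjusted p = 0.0202), from 15 to 25 counts in the WT libraries. None of 21 interferon genes had enough counts to test with edgeR, while DESeq2, with its own filter, called *IFNK* alone, as higher. Of these, 13 had no count in any library and the highest value was 0.545 CPM, from 12 counts of *IFNK* in CS19-1. Several of these genes lie on 9p21 near the genes with no count in WT.

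Of 9 adaptors and kinases of nucleic acid sensing that were tested, 7 were called lower. *CGAS*, the DNA sensor that makes cGAMP, had 92.3, 98 and 101 CPM in the WT libraries, 0, 0 and 0.119 CPM in CS16 and 0.0909, 0.0867 and 0.0327 CPM in CS19. The WT libraries were close together and the other 6 had at most 3 counts each (log2 fold change -10.61 ± 0.34 (SE), adjusted p = 8.35e-10). *TRIM25*, the ligase that activates RIG-I, fell from 198 ± 45.3 to 3.43 ± 0.692 CPM, and *IKBKE*, a kinase of IRF3, from 37.2 ± 10.2 to 0.139 ± 0.0921 CPM. Of 9 tested negative regulators and nucleic acid enzymes, 3 were called lower. *SOCS3* fell from 50.7 ± 7.3 to 0.982 ± 0.409 CPM and *SOCS1* from 4 ± 1.57 to 0.138 ± 0.1 CPM, both inhibitors of JAK kinases.

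Among 29 further interferon-stimulated genes that were tested, 16 were called lower and 1 higher, and among 17 genes of MHC class I antigen presentation 11 were lower and none higher. *SP100*, a nuclear body protein, fell from 70.5 ± 12.6 to 0.059 ± 0.0521 CPM and *LGALS3BP*, a secreted glycoprotein, from 560.4 ± 196 to 5.38 ± 0.85 CPM. *APOL6* had 2203, 1432 and 2027 counts in WT and 3 counts in 1 of the other 6 libraries. These lists stand beside the same 14.3% of all genes called lower and 12.6% called higher.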

How the data were processed

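Total RNA depleted of ribosomal RNA was sequenced from both ends. Per the submitters' processing notes and the file headers, the authors trimmed reads with Trimmomatic 0.36, aligned them with STAR 2.7.2b to GRCh38 and deposited whole-number counts of read pairs per gene, unnormalized, from featureCounts (Subread 2.0.0) on GENCODE 38. Chimeric pairs, pairs with an unaligned mate and those below a mapping quality of 30 were dropped. Strand was not used although the libraries were stranded, so counts of overlapping genes are uncertain, and 22 members share exonic bases with another gene, with 0 members sharing most of them.

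From the deposited counts, genes passing filterByExpr were scaled by TMM and compared with edgeR 4.0.16 (R 4.3.3, quasi-likelihood test, Benjamini-Hochberg adjustment over all genes tested), each comparison in its own fit. Standard errors were derived from the estimate and its F value. TPM used the summed exon length in the files. Alternatives were DESeq2 1.42.0, RLE, other filters and cut-offs, the replicate block and leaving out each library. Tested on simulated data, edgeR recovered 200 of 200 changed genes with 0 false calls in each of 3 comparisons, over 19305, 18572 and 17661 genes. The simulation gave every gene the same set spread and changed only well-counted genes, by a fold above the cut-off. It therefore checked the procedure and not its performance at the spread of the real libraries. Floors were 3 counts over the group, and 95% intervals of count ratios were exact. Both cover counting error only.

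Members given by library were, in each role, that with the highest mean TPM and that with the smallest p, and of each further list the 3 genes with the smallest p are named, except 1 gene that is not reported here. The members, lists and tests were chosen with earlier results of these data known. Tables and plots were made with matplotlib 3.10.9, scipy 1.17.1, pandas 2.3.3 and numpy 2.4.6 in Python 3.11.15.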

Additional observations from a re-analysis of the deposited data

Results flagged for a closer look

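For 11 of the 25 members tested, the clones differed at an adjusted p below 0.05 in a direct edgeR comparison of CS16 with CS19. Of these, 8 were lower in CS16 (12.7% of all genes tested) and 3 were higher (14.7%). Results are given as log2 fold changes, with positive values for a higher level in CS16. The values were -1.20 for *USP18* (adjusted p = 1.34e-06), -0.73 for *HERC5* (adjusted p = 1.42e-05) and -0.60 for *HERC6* (adjusted p = 0.00592) in the ISG15 system. In the IFIT family they were -1.30 for *IFIT2* (adjusted p = 0.0367), -0.43 for *IFIT1* (adjusted p = 0.0114) and -0.40 for *IFIT5* (adjusted p = 0.00793). They were -1.14 for *IFI35* (adjusted p = 0.0117) and -0.24 for *STAT2* (adjusted p = 0.0363), also lower in CS16. They were 0.99 for *SAMD9* (adjusted p = 0.00622), 0.86 for *IFITM1* (adjusted p = 0.00417) and 0.46 for *IRF1* (adjusted p = 0.0257), higher in CS16. Against WT, *USP18* was higher in both clones and the other 10 members were lower in both. The flags did not include a screen of single members for outlying libraries in groups of 3. The distance of WT-2 from its replicates is given above.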

How the results depend on the processing

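Read pairs without molecular identifiers and 3 libraries a group limit what can be resolved, and 22 members were too low in both clones to compare them. DESeq2, RLE scaling, no filter, a filter of 10 counts in 3 libraries, a fold-change cut-off of 1, adjusted p alone, the replicate block and leaving out each library kept every count of members within 1.5 times its value, except between CS16 and CS19. There the cut-off of 1 called 3 members and adjusted p alone called 11, against 0. Leaving out 1 library gave 37 to 38 members lower in *SNAI1*-KO, 38 to 38 in CS16 and 36 to 39 in CS19, with 1 to 1 higher each time and 0 to 0 called between clones. Replicate numbers did not pair the libraries (correlations of -0.387 to 0.331, 2 of 9 above 0.1). With the replicate block, 37 members were lower in *SNAI1*-KO against 38 without it.

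Of 1967 single-member values, 7 fell below the cut-off, 3 passed it and 0 reversed. *IFI6* in *SNAI1*-KO was not called with no filter (-1.93), with the block (-1.95), without WT-2 (-1.49), without CS16-1 (-1.88) or without CS16-3 (-1.95), nor in CS16 without WT-2 (-1.91). *HERC6* in CS19 was not called without CS19-1 (-1.95). Without WT-2, *IFIT5* was called in CS16 (-2.07), and *IFITM1* (-2.27) and *IFI44L* (-2.04) in CS19. The cause of these changes was not tested.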

Other observations

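The genes that load peptides onto MHC class I molecules, many of which respond to interferon gamma, were read as a neighbouring list. *PSMB8*, a subunit of the immunoproteasome, had 64.3, 45.2 and 75.6 CPM in the WT libraries, 0, 0 and 0 CPM in CS16 and 0.0454, 0 and 0.0327 CPM in CS19. Its WT libraries stood apart from the other 6, which held 2 counts in all. *ERAP1*, which trims peptides, fell from 116.6 ± 20.5 to 11.4 ± 0.925 CPM (log2 fold change -3.35 ± 0.14 (SE), adjusted p = 4.18e-09), and *HLA-B* from 581 ± 55.3 to 91.8 ± 5.35 CPM (log2 fold change -2.66 ± 0.12 (SE), adjusted p = 5.75e-09). *HLA-C* did not pass the test, at 262 ± 74.2 CPM in WT and 237 ± 18.9 CPM in *SNAI1*-KO (log2 fold change -0.15 ± 0.17 (SE), adjusted p = 0.46), and *HLA-F* was at 6.81 ± 1.04 CPM in WT and 13.8 ± 2.24 CPM in *SNAI1*-KO (log2 fold change 1.02 ± 0.20 (SE), adjusted p = 0.000769), under the cut-off on size. The HLA genes are close in sequence and vary between people, so the division of read pairs among them is uncertain. *HLA-C* and *HLA-F* were chosen after their values were seen.

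*IRF8*, a factor best known from immune cells and the 1 further interferon-stimulated gene called higher, had no count in WT and 17, 15.6 and 15.4 CPM in CS16 and 12.5, 16.3 and 13.1 CPM in CS19. The response element core was found in 11 of the 14 MHC class I genes with a promoter entry (78.57%) and in 10 of 22 further interferon-stimulated genes (45.45%).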
